A study of Mus musculus with 20 samples.

Results

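In this study poly(A)-selected RNA of bone marrow from male 129S4 mice was sequenced, and the genes that repair DNA crosslinks and double-strand breaks are described here. The set held 45 genes, chosen by symbol, of 20377 gene symbols in the deposited count table. It comprised 13 genes of recombination, 5 of end resection, 6 nucleases that cut at crosslinks, 2 of FANCD2 deubiquitination, 9 of checkpoint and damage signalling, 4 translesion polymerases and 6 of end joining. The rule names symbols and uses no measured value, though the list was drawn up with earlier results of these data known. Where a symbol had several rows, as for 5 of the 45, the row with the largest total was kept.

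KSL cells are cKit+ Sca1+ Lin- cells, the marrow fraction that contains stem and early progenitor cells of the blood. They came from wild-type and Fancd2-/- mice, on placebo or on oxymetholone, a synthetic androgen, with 3 libraries in each of the 4 groups. Each KSL library pooled the cells of 5 mice. Erythroblasts, sorted as Ter119+/CD71high/FSChigh, came from wild-type mice alone, 1 mouse to a library, with 3 libraries on placebo and 3 on oxymetholone. Whole marrow had 1 library of each genotype on placebo, each combining 5 mice. Oxymetholone was mixed into the chow at 300 mg/kg and fed from weaning for 3 months, and the mice were 4 months old. Fancd2-/- erythroblasts were not analysed here.

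An interstrand crosslink ties both strands of DNA together and stalls the replication fork that meets it. The Fanconi pathway marks the lesion by ubiquitinating FANCD2 and FANCI. Nucleases then cut beside the crosslink, translesion polymerases copy past the damaged base, and homologous recombination restores the broken duplex from the sister copy. Recombination starts with resection of the broken end and works mainly in S and G2 phase, while end joining ligates broken ends directly. ATR and ATM are the kinases that signal such lesions to the cell cycle. Inherited loss of FANCD2 causes Fanconi anaemia, in which blood stem cells fail.

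All 45 genes passed the filter on low counts in every comparison. Levels are given as CPM (counts scaled to library size) on 1 TMM scale over all 20 libraries, as mean ± SD over n = 3 libraries or library by library. They are divided by transcript length in kilobases where genes are compared with each other. Log2 changes are given ± SE, and a gene was called at an adjusted p under 0.05 in edgeR's quasi-likelihood test with Benjamini-Hochberg adjustment. The KSL libraries held 10777293 to 121347117 counts, the erythroblast libraries 17177255 to 20816422 and the whole marrow libraries 100192496 and 106889481. Fancd2 lay at 4.69 to 6.16 CPM in the 6 Fancd2-/- KSL libraries and at 12.3 to 16.5 CPM in the 6 wild-type ones, without overlap. Kit, a marker of KSL cells, lay at 210 to 562 CPM in KSL cells and at 0.356 to 1.32 CPM in erythroblasts. Within KSL cells Kit was lower in Fancd2-/- than in wild-type libraries, at 210 to 370 against 434 to 562 CPM on placebo. On oxymetholone it was at 344 to 394 against 458 to 523 CPM, and the genotypes did not overlap on either diet. The stem and progenitor marker Ly6a overlapped between genotypes on both diets. Tfrc, which encodes the CD71 used in the erythroblast sort, lay at 24.4 to 37.9 CPM in KSL cells and at 7370 to 8600 CPM in erythroblasts. The labels do not say whether the KSL pools of a group held different mice, so p-values in KSL cells measure the spread between these libraries, which may be technical.

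One library stood apart. Fancd2-/- placebo replicate 3 had a first principal component score of 66.9, against -23.5 to 4.5 in the other KSL libraries. The slope of its log2 levels on log2 transcript length was -0.187, where the remaining KSL libraries had slopes of -0.043 to 0.103. All 8 repair genes with transcripts over 7000 bases lay below the mean of Fancd2-/- placebo replicates 1 and 2 in that library, with a median log2 ratio of -0.40. Of the 16 with transcripts under 3000 bases, 7 lay below it, with a median of 0.08. Rev3l, which has one of the longest transcripts, stood at -0.81, and Ercc1, which has one of the shortest, at 0.71.

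**Figure D1:**
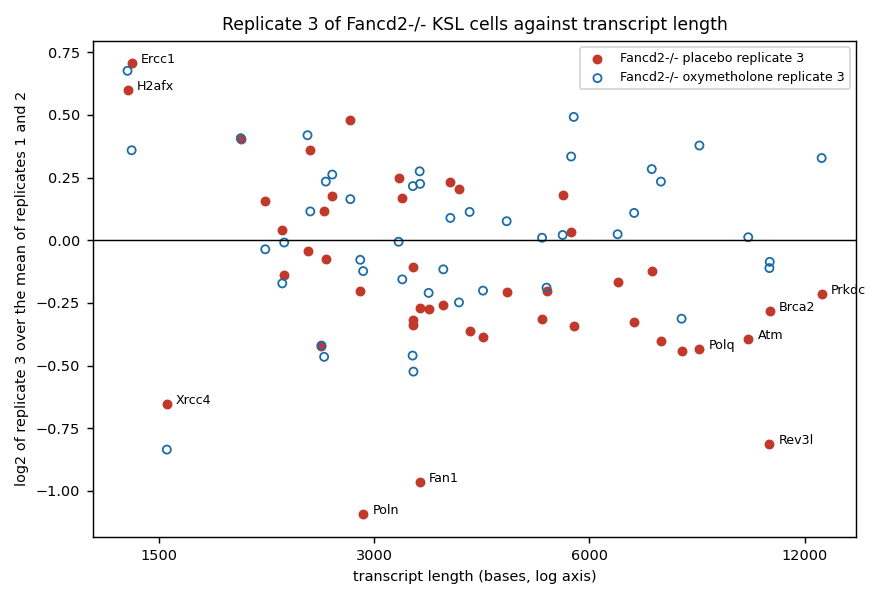
Log2 of the level in replicate 3 over the mean of replicates 1 and 2 (y axis) against transcript length in bases (x axis, log scale) for the 45 repair genes in Fancd2-/- KSL cells on placebo (filled) and on oxymetholone (open). The 8 filled points over 7000 bases all lie below 0 (median -0.40), while of their open points Polq (0.38) and Prkdc (0.33) lie above 0 and Atr (-0.31) below.

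The largest differences among these genes were between cell populations. In wild-type mice on placebo, 34 of the 45 genes were higher in erythroblasts than in KSL cells and 7 were lower, where 37.2% of the 12538 genes tested were called higher and 53.7% lower. The median log2 change of the repair genes was 2.0, and that of all genes tested was -0.67. These values depend on the scaling of libraries. With each library scaled to its total count, as in the deposited normalised matrix, limma called 25 repair genes higher and 14 lower, and 19.5% of all genes higher and 73.0% lower. The median was then 0.63, and -2.02 over all genes. The repair genes' median lay above that of all genes by 2.66 under TMM, 2.66 under median-of-ratios size factors and 2.64 under total-count scaling. In each of the 3 scalings 38 of the 45 lay above the all-gene median. A change of scaling moves the log2 changes of all genes by nearly the same amount. These values therefore match by construction and are not 3 separate results. The calls shared by all 3 scalings were 25 higher and 7 lower. The share of all genes called in all 3 was not computed. It cannot exceed 19.5% for higher, the share under total-count scaling, or 52.0% for lower, the share under median-of-ratios size factors. In bulk RNA, fewer cells that hold a transcript and less of it per cell cannot be told apart. Population, cell sort and mice per library (5 for KSL cells, 1 for erythroblasts) differed together, so their parts cannot be told apart either.

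**Figure D2:**
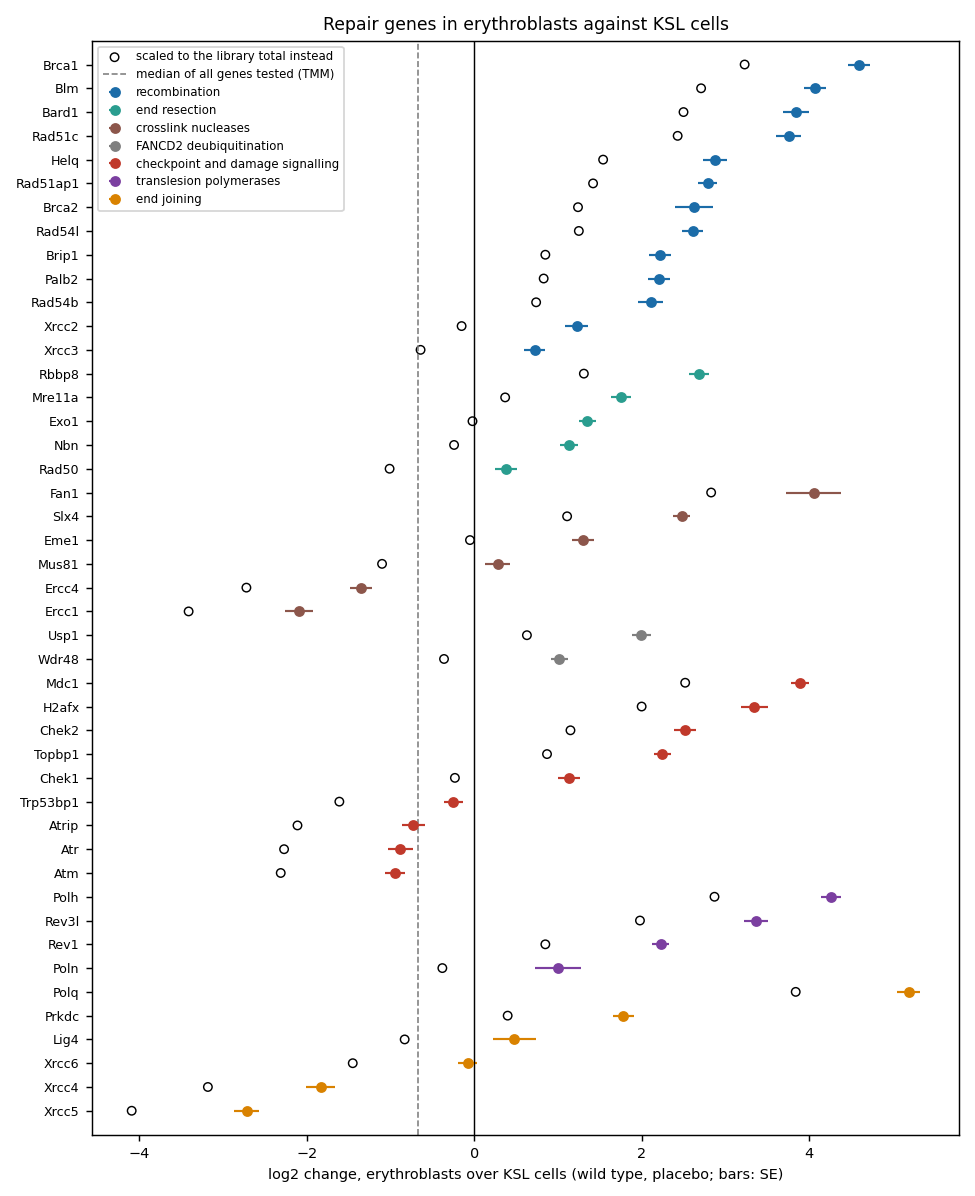
Log2 change from KSL cells to erythroblasts in wild-type mice on placebo (x axis) for each repair gene (rows, grouped and coloured by role). Filled points with SE bars are edgeR with TMM, open points total-count scaling, and the dashed line the median of all genes tested, -0.67; Polq (5.19 ± 0.14) lies farthest right and Xrcc5 (-2.72 ± 0.15) farthest left.

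All 13 recombination genes were called higher in erythroblasts, with a median log2 change of 2.62, and 11 of them were called higher under all 3 scalings. Brca1, which promotes resection and recombination, was at 26.4, 33.0 and 28.9 CPM in the 3 wild-type placebo KSL libraries and at 642, 664 and 747 CPM in the 3 placebo erythroblast libraries. Its groups lay far apart, with a log2 change of 4.59 ± 0.13 (adjusted p = 4.53e-14). Bard1, the partner of BRCA1, was at 15.01, 21.9 and 15.9 CPM and at 221, 253 and 259 CPM, a log2 change of 3.84 ± 0.15 (adjusted p = 2.05e-12). Blm, the helicase that dissolves recombination intermediates, was at 22.4, 26.8 and 22.3 CPM in KSL cells and at 349, 379.7 and 432 CPM in erythroblasts, a log2 change of 4.07 ± 0.13 (adjusted p = 1.43e-13). For each of the 3 every erythroblast library exceeded every KSL library.

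Rad51ap1, which stimulates strand exchange, was at 38.7, 45.2 and 40.6 CPM in KSL cells and at 276, 278 and 271 CPM in erythroblasts, a log2 change of 2.79 ± 0.11 (adjusted p = 1.52e-12). Rad51c, a recombination mediator, was at 6.43, 6.48 and 4.78 CPM and at 76.8, 85.1 and 73.4 CPM, a log2 change of 3.75 ± 0.15 (adjusted p = 1.56e-12). Both rose without overlap from very different starting levels. Per kilobase of transcript, Rad51ap1 was the most abundant recombination gene in KSL cells, at 18.6 ± 1.51 CPM, and Rad51c the least, at 1.5 ± 0.245. In erythroblasts Rad51ap1 stood at 123 ± 1.75 and Rad51c at 19.9 ± 1.52 CPM per kilobase. Brca1 stood at 4.48 ± 0.503 CPM per kilobase in KSL cells and 104 ± 8.48 in erythroblasts, Bard1 at 3.11 ± 0.666 and 43.1 ± 3.59, and Blm at 5.19 ± 0.563 and 84.1 ± 9.12.

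Brca2, a mediator of recombination, stood at 4.39 ± 0.889 CPM per kilobase in KSL cells and 26.2 ± 7.64 in erythroblasts, a log2 change of 2.62 ± 0.23. Palb2, the bridge between BRCA1 and BRCA2, stood at 4.15 ± 0.405 and 18.4 ± 1.65. The helicases Brip1 and Helq stood at 2.87 ± 0.484 and 3.84 ± 0.694 in KSL cells and at 12.8 ± 0.861 and 27.5 ± 2.57 in erythroblasts. All 4 were called higher under each scaling. The motor proteins of strand exchange, Rad54l and Rad54b, stood at 12.2 ± 1.58 and 3.73 ± 0.564 CPM per kilobase in KSL cells and at 71.7 ± 4.31 and 15.4 ± 1.66 in erythroblasts. The recombination mediators Xrcc2 and Xrcc3 stood at 5.02 ± 0.404 and 13.0 ± 1.06 and at 11.2 ± 1.43 and 20.6 ± 1.75. Their direction depended on the scale, with log2 changes of 1.22 ± 0.14 and 0.72 ± 0.12 under TMM and -0.15 and -0.64 under total-count scaling.

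The 5 genes of end resection were called higher under TMM, with a median log2 change of 1.35, and 2 of the 5 under all 3 scalings. Those 2 were Rbbp8, which encodes CtIP and starts resection (2.69 ± 0.12), and Mre11a, the nuclease of the MRN complex (1.75 ± 0.12). Exo1, the long-range resection nuclease, had a log2 change of 1.35 ± 0.11, and Nbn and Rad50, the other subunits of MRN, of 1.13 ± 0.11 and 0.38 ± 0.13. Under total-count scaling these 3 stood at -0.02, -0.24 and -1.01. The call on Rad50 was lost without KSL replicate 3 or without erythroblast replicate 3 of the wild type on placebo, at 0.30 (adjusted p = 0.054) and 0.21 (adjusted p = 0.115). Per kilobase, Rad50, Mre11a and Nbn stood at 14.0 ± 1.06, 7.93 ± 0.322 and 13.8 ± 0.310 CPM in KSL cells and at 17.4 ± 3.44, 25.5 ± 3.45 and 28.9 ± 2.82 in erythroblasts. Rbbp8 and Exo1 stood at 5.36 ± 0.251 and 7.48 ± 0.472 in KSL cells and at 33.2 ± 3.74 and 18.3 ± 0.638 in erythroblasts.

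The crosslink nucleases split. Slx4, the scaffold that holds several of them, was at 35.4 ± 1.80 CPM in KSL cells and 189 ± 1.05 in erythroblasts, a log2 change of 2.48 ± 0.10. Fan1, a nuclease recruited by ubiquitinated FANCD2, was at 0.799, 0.407 and 0.255 CPM in KSL cells and at 8.11, 7.02 and 9.55 CPM in erythroblasts, a log2 change of 4.05 ± 0.33 (adjusted p = 9.06e-09). Both were higher under all 3 scalings, and Fan1 was the least abundant repair gene in KSL cells per kilobase, at 0.140 ± 0.0807 CPM.

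Ercc1 and Ercc4 encode the subunits of the XPF nuclease, and both were lower in erythroblasts under all 3 scalings. Ercc1 was at 30.7, 28.8 and 23.1 CPM in KSL cells and at 6.38, 6.49 and 5.81 CPM in erythroblasts, a log2 change of -2.09 ± 0.17 (adjusted p = 9.04e-09). Ercc4 was at 45.2, 43.5 and 40.3 CPM and at 14.3, 16.9 and 17.2 CPM, a log2 change of -1.35 ± 0.13 (adjusted p = 8.74e-08). The populations did not overlap for either subunit. Exons of another gene overlap 7.71% of the exonic bases of Ercc1, 9.04% of Eme1, 7.27% of Xrcc4 and 6.37% of Atrip. Mus81 and Eme1 form another nuclease. Eme1 had a log2 change of 1.30 ± 0.13 under TMM and -0.05 under total-count scaling, and Mus81 of 0.28 ± 0.15 (adjusted p = 0.0892) and -1.1. Per kilobase, Ercc1, Eme1, Ercc4, Mus81 and Slx4 stood at 20.03 ± 2.87, 13.9 ± 2.13, 12.4 ± 0.711, 9.09 ± 0.144 and 6.20 ± 0.315 CPM in KSL cells. In erythroblasts these 5 stood at 4.53 ± 0.266, 33.2 ± 1.16, 4.64 ± 0.466, 10.6 ± 1.85 and 33.1 ± 0.184, and Fan1 at 2.37 ± 0.366. Eme1 and Slx4 led there and did not differ beyond their spread.

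USP1 and its cofactor WDR48 remove ubiquitin from FANCD2. Usp1 was called higher in erythroblasts under all 3 scalings (2.0 ± 0.12), at 31.0 ± 3.82 CPM per kilobase in KSL cells and 119 ± 12.1 in erythroblasts. Wdr48 stood at 21.99 ± 0.967 and 42.6 ± 1.58, a log2 change of 1.02 ± 0.10 under TMM and -0.36 under total-count scaling. Reads of Wdr48 are uncertain, since 23.8% of its exonic bases lie opposite exons of Gorasp1.

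In checkpoint and damage signalling, 5 genes were called higher and 3 lower. H2afx, which encodes the histone H2AX that is phosphorylated around breaks, was the most abundant repair gene per kilobase in all 3 populations. It was at 234, 345 and 240.2 CPM in KSL cells and at 2474, 2571 and 2961 CPM in erythroblasts, a log2 change of 3.35 ± 0.16 (adjusted p = 1.79e-11). Mdc1, which binds phosphorylated H2AX, was at 35.2, 36.7 and 33.6 CPM and at 466, 509 and 525 CPM, a log2 change of 3.89 ± 0.11 (adjusted p = 5e-14). Topbp1, which activates ATR, and Chek2, the kinase downstream of ATM, had log2 changes of 2.25 ± 0.10 and 2.52 ± 0.13. These 4 were higher under all 3 scalings.

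Atm, Atr and its partner Atrip were lower under all 3 scalings. Atm was at 48.7, 55.0 and 55.1 CPM in KSL cells and at 25.1, 25.6 and 28.5 CPM in erythroblasts, a log2 change of -0.94 ± 0.12 (adjusted p = 1.95e-06). Atr was at 33.7, 35.8 and 32.9 CPM and at 14.5, 17.0 and 21.7 CPM, a log2 change of -0.88 ± 0.15 (adjusted p = 4.16e-05). The populations did not overlap for these kinases. Atrip was at 38.9, 34.7 and 37.5 CPM and at 17.7, 23.8 and 22.6 CPM, a log2 change of -0.73 ± 0.14 (adjusted p = 0.00012). The all-gene median was -0.67. Chek1, the kinase downstream of ATR, had a log2 change of 1.14 ± 0.13 under TMM and -0.23 under total-count scaling. Trp53bp1, which opposes resection, stood at -0.25 ± 0.12 (adjusted p = 0.0567) and -1.61, and 24.79% of its exonic bases overlap exons of Tubgcp4.

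Per kilobase in KSL cells, H2afx stood at 201 ± 46.0 CPM, Topbp1 at 27.7 ± 1.72, Atrip at 14.1 ± 0.822, Chek2 at 13.0 ± 1.58, Trp53bp1 at 12.1 ± 1.57 and Chek1 at 11.2 ± 1.76. Atm at 5.29 ± 0.366, Mdc1 at 4.79 ± 0.213 and Atr at 4.22 ± 0.185 were the least abundant. From Atrip to Chek1, neighbours lay within their spread. In erythroblasts H2afx stood at 1967 ± 189.8, Topbp1 at 126 ± 4.04, Chek2 at 71.7 ± 9.43, Mdc1 at 68.2 ± 4.18 and Chek1 at 23.6 ± 1.60. Below them lay Trp53bp1 at 9.78 ± 0.572, Atrip at 8.15 ± 1.23, Atm at 2.64 ± 0.183 and Atr at 2.20 ± 0.456.

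The 4 translesion polymerases were called higher under TMM. Polh, polymerase eta, was at 11.7, 11.2 and 12.7 CPM in KSL cells and at 208, 227 and 216 CPM in erythroblasts, a log2 change of 4.26 ± 0.12 (adjusted p = 2.91e-14). Rev3l, the catalytic subunit of polymerase zeta, was at 18.6 ± 1.21 CPM and 185 ± 39.5 CPM, a log2 change of 3.37 ± 0.15. Rev1, the scaffold of these polymerases, had a log2 change of 2.23 ± 0.10, with 29.08% of its exonic bases overlapping exons of Eif5b. Poln, polymerase nu, was low throughout, at 1.52 ± 0.173 and 2.88 ± 0.319 CPM, and its log2 change of 1.0 ± 0.28 became -0.38 under total-count scaling. Per kilobase, Rev1, Polh, Rev3l and Poln stood at 9.37 ± 0.464, 4.62 ± 0.309, 1.74 ± 0.113 and 0.524 ± 0.0598 CPM in KSL cells. In erythroblasts they stood at 41.9 ± 1.59, 84.5 ± 3.78, 17.3 ± 3.69 and 0.993 ± 0.110, so that Polh took the place of Rev1 as the most abundant.

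End joining genes spanned the whole range. Polq, polymerase theta, which joins resected ends through short homologies, changed most of all 45 genes. It was at 8.54, 10.9 and 8.60 CPM in KSL cells and at 325, 339 and 332 CPM in erythroblasts, a log2 change of 5.19 ± 0.14 (adjusted p = 2.52e-14). Xrcc5, which encodes the Ku80 subunit of the ring that caps ends for classical end joining, had the lowest value of the 45. It was at 63.6, 55.9 and 57.6 CPM in KSL cells and at 6.92, 8.89 and 9.93 CPM in erythroblasts, a log2 change of -2.72 ± 0.15 (adjusted p = 7.2e-11). Xrcc6, which encodes its partner Ku70, was at 165, 137 and 137 CPM and at 123, 146 and 130 CPM, and the groups overlapped (-0.08 ± 0.11, adjusted p = 0.523). The value of Xrcc6 turned to 0.01 without KSL replicate 1. Per kilobase, Xrcc5 stood at 23.1 ± 1.58 CPM in KSL cells and 3.36 ± 0.599 in erythroblasts, and Xrcc6 at 69.2 ± 7.61 and 62.9 ± 5.38.

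Xrcc4, the scaffold of the final ligation, was at 18.1, 17.9 and 19.9 CPM in KSL cells and at 5.51, 4.80 and 4.68 CPM in erythroblasts, a log2 change of -1.83 ± 0.17 (adjusted p = 4.09e-08). Lig4, the ligase that XRCC4 holds, was at 2.35 ± 0.375 and 3.22 ± 0.355 CPM (0.48 ± 0.26, adjusted p = 0.0909). Prkdc, the catalytic subunit of DNA-dependent protein kinase, was called higher under all 3 scalings (1.78 ± 0.12). Per kilobase, Xrcc4, Prkdc, Polq and Lig4 stood at 12.1 ± 0.705, 1.99 ± 0.0591, 1.09 ± 0.161 and 0.577 ± 0.0920 CPM in KSL cells. In erythroblasts they stood at 3.25 ± 0.291, 6.57 ± 0.963, 38.8 ± 0.847 and 0.788 ± 0.0869.

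Over all 45 genes the median level was 7.48 CPM per kilobase in KSL cells and 23.7 in erythroblasts. It was 8.91 and 14.4 for genes with a mean of at least 10 counts per library of the group. These were 13367 genes in KSL cells and 9618 in erythroblasts, so the 2 values are over different sets of genes. Of 75 other repair genes tested in the same comparison, 54 were called higher and 12 lower, with a median log2 change of 0.93. Gen1, a resolvase of recombination intermediates (6.10 ± 0.16, adjusted p = 2.64e-14), Fen1, the flap nuclease of replication (3.72 ± 0.11), Usp7, a deubiquitinase (3.71 ± 0.12), and Fancm, the translocase that remodels stalled forks (3.5 ± 0.12), had the smallest p. Of 35 DNA replication genes 34 were called higher and 0 lower, with a median of 2.47, and of 27 mitosis genes 27, with a median of 3.88. The replication genes summed to 3740 to 4040 CPM in wild-type placebo KSL libraries and 25500 to 26400 CPM in placebo erythroblasts. Of 16 neutrophil and monocyte markers tested 9 were called higher and 5 lower, with a median of 2.34. They summed to 337 to 509 CPM in placebo erythroblasts and 971 to 1210 CPM in wild-type placebo KSL libraries. Of 6 megakaryocyte markers 2 were called higher and 4 lower, and they summed to 187 to 198 and 82.9 to 90.0 CPM. The part of these lists in the repair genes' difference was not tested.

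The promoters of Polq, Polh, Brca1 and Mdc1 are shown because these 4 repair genes had the smallest p in this comparison. Each window runs from 250 bases before to 50 bases after the start in the deposited table and was read from mm9, 5′ to 3′ on the gene's strand. In that order the windows are chr16:37011622-37011921 (plus strand), chr17:46339525-46339824 (minus), chr11:101413220-101413519 (minus) and chr17:35978193-35978492 (plus). The genes span chr16:37011872-37095503, chr17:46308942-46339574, chr11:101350078-101413269 and chr17:35978443-35996615. Capitals mark matches on either strand to the E2F motif (TTTCCCGC, TTTGGCGC or TTTCGCGC), the CHR of cell cycle genes (TTTGAA), the CCAAT box and the GC box (GGGCGG), none of which contains another.
Polq: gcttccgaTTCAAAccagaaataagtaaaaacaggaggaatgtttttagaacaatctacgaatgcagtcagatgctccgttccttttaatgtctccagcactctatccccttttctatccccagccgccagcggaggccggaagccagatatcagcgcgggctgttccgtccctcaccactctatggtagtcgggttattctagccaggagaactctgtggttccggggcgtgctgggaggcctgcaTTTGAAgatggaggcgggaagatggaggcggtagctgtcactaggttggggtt
Polh: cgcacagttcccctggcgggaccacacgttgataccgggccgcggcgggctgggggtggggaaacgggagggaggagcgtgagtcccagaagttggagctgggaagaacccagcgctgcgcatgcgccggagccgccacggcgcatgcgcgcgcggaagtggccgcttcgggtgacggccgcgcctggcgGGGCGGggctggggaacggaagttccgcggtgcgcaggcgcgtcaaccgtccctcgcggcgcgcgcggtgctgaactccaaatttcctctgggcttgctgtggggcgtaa
Brca1: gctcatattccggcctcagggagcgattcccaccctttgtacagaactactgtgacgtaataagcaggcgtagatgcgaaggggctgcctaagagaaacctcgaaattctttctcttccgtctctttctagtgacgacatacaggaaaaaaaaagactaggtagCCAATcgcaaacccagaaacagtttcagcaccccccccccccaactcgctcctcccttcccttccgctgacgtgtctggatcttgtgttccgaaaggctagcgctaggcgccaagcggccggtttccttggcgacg
Mdc1: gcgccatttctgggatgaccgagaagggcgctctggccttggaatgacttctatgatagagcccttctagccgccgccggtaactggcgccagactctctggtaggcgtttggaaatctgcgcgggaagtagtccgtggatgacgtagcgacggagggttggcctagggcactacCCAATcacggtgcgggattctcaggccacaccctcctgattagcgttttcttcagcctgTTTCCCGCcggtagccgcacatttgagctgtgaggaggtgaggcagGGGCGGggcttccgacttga

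The Polq window held 2 CHR matches, the Polh window 1 GC box and the Brca1 window 1 CCAAT box. The Mdc1 window held 1 match each to E2F, the CCAAT box and the GC box. Over the set, an E2F match was found in 10 of 45 promoters (22.2%), beside 522 of 20325 promoters of all symbols (2.57%). These 10 were Brca2, Bard1, Rad51c, Xrcc2, Usp1, Chek2, Topbp1, Mdc1, Prkdc and Xrcc6. Of the 34 genes called higher in erythroblasts 9 held one (26.5%), and of the 7 called lower 0. CHR matches were in 5 of 45 (11.1%, beside 15% of all promoters), CCAAT boxes in 21 (46.7%, beside 38.2%) and GC boxes in 31 (68.9%, beside 49.4%). A match describes these letters and not a bound site.

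In whole marrow, a mixture in which neutrophil and monocyte markers summed to 132000 CPM in wild type, the median repair gene stood at 7.66 CPM per kilobase, beside 8.59 for genes with at least 10 counts. Lig4 stood out from its level in the sorted cells. It was at 17.1 CPM in wild-type and 15.5 CPM in Fancd2-/- whole marrow, and at most 4.03 CPM in any of the 18 sorted libraries. The wild-type value was 7.27 times the wild-type placebo KSL mean and 5.32 times the erythroblast mean. H2afx, Bard1 and Polq were at 3.61, 3.56 and 3.36 times the KSL mean, and Xrcc5, Atm and Xrcc4 at 0.296, 0.388 and 0.419 times. With 1 library these ratios carry no test. They also depend on the scaling of libraries. The TMM factor was 0.8345 in wild-type whole marrow, 1.3736 to 1.4566 in wild-type placebo KSL and 0.5338 to 0.5691 in placebo erythroblast libraries.

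Per kilobase in wild-type whole marrow, the recombination genes Brca1, Brca2, Palb2, Brip1, Bard1, Rad51ap1 and Rad51c stood at 11.3, 7.24, 4.64, 3.88, 11.1, 40.5 and 4.31 CPM. Xrcc2, Xrcc3, Rad54l, Rad54b, Blm and Helq stood at 3.94, 13.1, 24.2, 4.04, 13.8 and 6.69. Rad51ap1 was thus the most abundant recombination gene here as in both sorted populations. The resection genes Rad50, Mre11a, Nbn, Rbbp8 and Exo1 stood at 11.6, 7.32, 12.6, 11.2 and 7.66 CPM per kilobase. The nuclease genes Eme1, Mus81, Slx4, Ercc1, Ercc4 and Fan1 stood at 19.4, 11.7, 9.30, 16.6, 8.35 and 0.107, and Fan1 was again the lowest of the 45. Usp1 and Wdr48 stood at 42.2 and 22.5. The signalling genes Atr, Atrip, Atm, Chek1, Chek2, Topbp1, Mdc1, Trp53bp1 and H2afx stood at 2.42, 6.995, 2.05, 8.51, 16.6, 29.7, 6.95, 6.54 and 727, with Atm and Atr lowest. The polymerases Rev1, Rev3l, Polh and Poln stood at 12.2, 3.01, 6.58 and 0.363, and the end joining genes Xrcc4, Lig4, Prkdc, Xrcc5, Xrcc6 and Polq at 5.06, 4.19, 2.33, 6.84, 57.5 and 3.68.

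The genotype contrast asks whether KSL cells that lack FANCD2 carry other levels of the remaining repair genes. On placebo, edgeR called 0 of the 45, where it called 1.28% of 13259 genes, and limma called 0. At an unadjusted p under 0.05 there were 13 of 45, each with a higher value in Fancd2-/- cells. Of all genes 19.6% had such a p in either direction, and 1296 of 13259 had it with a higher value. The median log2 difference was 0.16, and -0.01 over all genes, with 31 of 45 values above 0 beside 48.4% of all genes. In 10 genes the 3 Fancd2-/- libraries lay above the 3 wild-type ones without overlap, beside 9.31% of all genes, and in 0 below, beside 15.3%. The 10 were Brca1, Rad51ap1, Rad51c, Xrcc2, Rad54b, Mre11a, Rbbp8, Exo1, Eme1 and Chek2. DESeq2 called 5 repair genes higher, beside 3.53% of all genes: Exo1 (0.49 ± 0.11), Rad51ap1 (0.48 ± 0.12), Eme1 (0.58 ± 0.16), Brca1 (0.44 ± 0.12) and Mre11a (0.47 ± 0.13). With each library's trend on transcript length removed, edgeR called 4 higher, beside 0.641% of all genes: Brca1 (0.60 ± 0.11), Exo1 (0.63 ± 0.13), Polq (0.67 ± 0.14) and Rad51ap1 (0.46 ± 0.10).

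**Figure D3:**
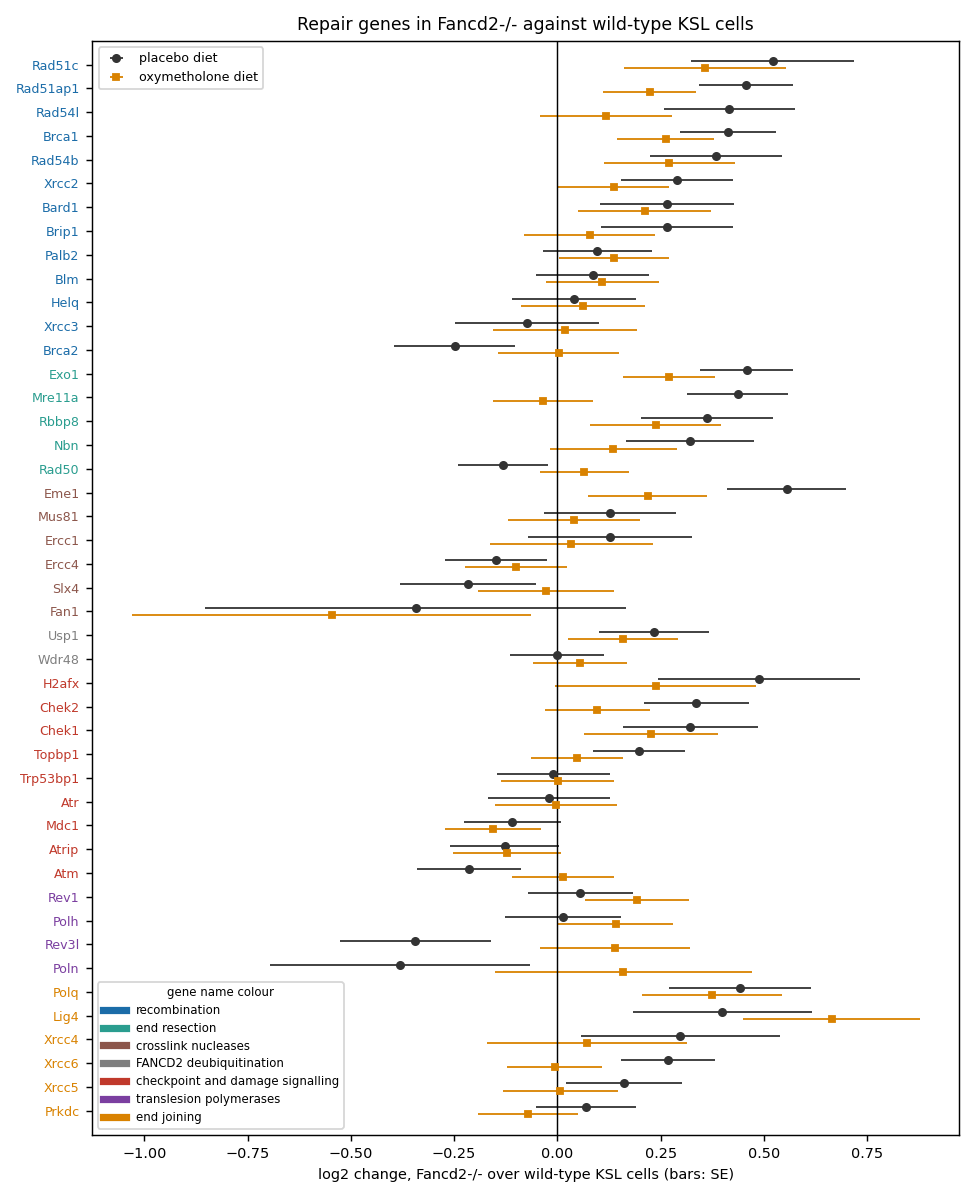
Log2 difference between Fancd2-/- and wild-type KSL cells (x axis, bars SE) for each repair gene (rows, name coloured by role) on placebo (circles) and on oxymetholone (squares). On placebo 31 of 45 values lie above 0 with a median of 0.16, on oxymetholone 36 of 45 with a median of 0.10, and edgeR called 0 on either diet.

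The 3 genes with the smallest p were a resection nuclease, a recombination cofactor and a subunit of a crosslink nuclease. Exo1 (chr1:177810909-177841527) was at 39.3, 44.1 and 40.1 CPM in the wild-type placebo libraries and at 51.6, 54.1 and 59.8 CPM in the Fancd2-/- ones, a log2 difference of 0.46 ± 0.11 (adjusted p = 0.0633). Rad51ap1 (chr6:126873437-126889573) was at 38.7, 45.2 and 40.6 CPM and at 56.0, 54.2 and 56.7 CPM, a difference of 0.46 ± 0.11 (adjusted p = 0.0644). Both sets of Fancd2-/- libraries were higher without overlap. Eme1 (chr11:94506316-94515068) was at 35.0, 38.8 and 28.5 CPM and at 40.5, 48.6 and 57.2 CPM, a difference of 0.56 ± 0.14 (adjusted p = 0.075), again without overlap but with a wider spread. Without Fancd2-/- placebo replicate 1, Eme1 was called at 0.69 (adjusted p = 0.0336). Without replicate 3, the library that stood apart, 0 repair genes were called. In that fit 14 had an unadjusted p under 0.05, beside 2082 of 13369 genes tested. Without wild-type placebo replicate 1 the 13 genes became 7, beside 2256 of 13407.

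Mre11a was at 26.6, 24.8 and 26.8 CPM in wild-type and 32.2, 33.8 and 37.1 CPM in Fancd2-/- placebo libraries, a difference of 0.44 ± 0.12 (adjusted p = 0.0885). Brca1 was at 26.4, 33.0 and 28.9 CPM and at 37.4, 42.2 and 35.5 CPM, a difference of 0.41 ± 0.12 (adjusted p = 0.094). Wild-type libraries were lower without overlap for both genes. The smallest p among values below 0 belonged to Rev3l, Atm and Brca2. Rev3l was at 18.4, 19.9 and 17.5 CPM in wild-type and 17.8, 16.0 and 9.60 CPM in Fancd2-/- libraries (-0.34 ± 0.18, adjusted p = 0.307). Atm was at 48.7, 55.0 and 55.1 CPM and 52.0, 45.0 and 36.9 CPM (-0.21 ± 0.12, adjusted p = 0.35), and Brca2 at 46.9, 56.8 and 37.7 CPM and 43.8, 38.7 and 33.9 CPM (-0.25 ± 0.15, adjusted p = 0.355). All 3 have transcripts over 7000 bases and were lowest in Fancd2-/- placebo replicate 3. With the length trend removed, Atm and Brca2 turned to 0.04 and 0.03.

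By role, the median log2 difference on placebo was 0.27 for recombination, 0.36 for end resection, 0.28 for end joining, 0.12 for FANCD2 deubiquitination, -0.01 for crosslink nucleases, -0.01 for checkpoint and damage signalling and -0.17 for translesion polymerases. Of the last, Rev3l and Poln (-0.38 ± 0.32) lay below 0, and both were lowest in Fancd2-/- placebo replicate 3, at -0.81 and -1.09 on the log2 scale from the mean of replicates 1 and 2. An unadjusted p under 0.05 was found for 6 of 13 recombination genes, 3 of 5 resection genes, 2 of 6 end joining genes, 1 of 6 nucleases, 1 of 9 signalling genes, 0 of 2 deubiquitination genes and 0 of 4 polymerases. Of 76 other repair genes 1 was called, Mnd1, a recombination factor of meiosis (0.77 ± 0.16, adjusted p = 0.0386), with a median of 0.14. Of 35 DNA replication genes 1 was called higher, Rrm2, a subunit of ribonucleotide reductase (0.66 ± 0.13, adjusted p = 0.0257), with a median of 0.40. Of 27 mitosis genes 13 were called higher, with a median of 0.75. The mitotic cyclins Ccnb2 (0.91 ± 0.13) and Ccnb1 (1.07 ± 0.17), the centromere histone Cenpa (0.88 ± 0.13) and the ubiquitin-conjugating enzyme Ube2c (1.16 ± 0.20) had the smallest p among them. The mitosis genes summed to 1470 to 1900 CPM in wild-type and 2230 to 2870 CPM in Fancd2-/- placebo libraries, without overlap. Stem and progenitor markers summed to 3410 to 3720 and 2320 to 3090 CPM, also without overlap, and neutrophil and monocyte markers to 971 to 1210 and 655 to 1340 CPM. Mast cell and basophil markers summed to 6.84 to 7.96 CPM in wild-type and 11.8 to 17.0 CPM in Fancd2-/- placebo libraries, and megakaryocyte markers to 82.9 to 90.0 and 68.4 to 69.3 CPM, both without overlap. Their part in the repair genes' values was not tested.

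On oxymetholone, edgeR, DESeq2 and limma called 0 of the 45 between genotypes, where edgeR called 0.128% of 13259 genes. At an unadjusted p under 0.05 there were 4 of 45, beside 5.57% of all genes. These 4 became 1 without replicate 1 of wild type (780 of 13454 over all genes) or of Fancd2-/- (664 of 13471). They became 2 without wild-type replicate 2 (518 of 13459). The median log2 difference was 0.10, and 0.006 over all genes, with 36 of 45 values above 0 beside 51.6% of all genes. Of 76 other repair genes 56 lay above 0, with a median of 0.075. Lig4 was at 2.57, 2.73 and 1.93 CPM in wild-type and 3.52, 3.93 and 4.03 CPM in Fancd2-/- oxymetholone libraries, a difference of 0.66 ± 0.21 (adjusted p = 0.538). Exo1 was at 42.5, 45.6 and 45.3 CPM and 52.9, 53.4 and 53.9 CPM (0.27 ± 0.11, adjusted p = 0.787), and Brca1 at 35.5, 34.4 and 37.2 CPM and 43.6, 41.1 and 43.1 CPM (0.26 ± 0.12, adjusted p = 0.848). The genotypes did not overlap for these 3 genes, and Polq (0.38 ± 0.17) was the other one with an unadjusted p under 0.05. In all, 8 genes lay above wild type without overlap, beside 5.02% of all genes, and 0 below, beside 6.96%. They were Brca1, Rad51ap1, Rad51c, Exo1, Eme1, Rev1, Lig4 and Polq.

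The smallest p among values below 0 on oxymetholone belonged to Mdc1, Fan1 and Atrip. Mdc1 was at 35.8, 33.7 and 36.6 CPM in wild-type and 29.4, 29.4 and 35.8 CPM in Fancd2-/- libraries (-0.16 ± 0.12, adjusted p = 0.999). Fan1 was at 0.443, 1.001 and 0.529 and 0.385, 0.466 and 0.515 CPM (-0.55 ± 0.48), and Atrip at 39.9, 35.4 and 34.6 and 32.9, 29.9 and 37.7 CPM (-0.12 ± 0.13). The genotypes overlapped for all 3. Mitosis genes had a median of 0.21 here, with 26 of 27 values above 0 and 0 called. They summed to 2080 to 2150 CPM in wild-type and 2290 to 2550 CPM in Fancd2-/- oxymetholone libraries, without overlap. Stem and progenitor markers (3440 to 3490 and 2880 to 3000 CPM) did not overlap either. Nor did erythroid (39.4 to 45.5 and 50.2 to 59.0 CPM) and stromal markers (140 to 151 and 103 to 133 CPM). The other marker sums overlapped. The part of these lists in the repair genes' values was not tested.

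**Figure D4:**
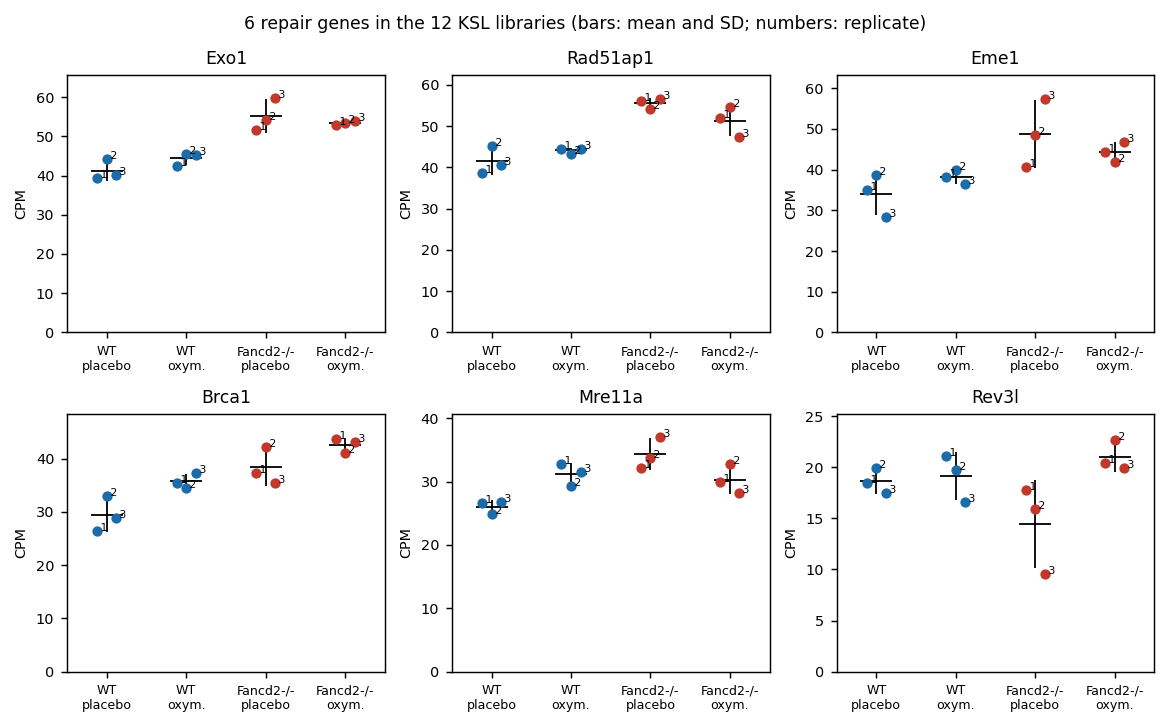
CPM (y axis, from 0) of 6 repair genes in the 12 KSL libraries by genotype and diet (x axis), where points are libraries with their replicate number and bars are mean and SD. Exo1 is at 51.6 CPM or more in Fancd2-/- and at most 45.6 CPM in wild-type libraries, Rad51ap1 at 47.2 or more and at most 45.2, and Rev3l is lowest in Fancd2-/- placebo replicate 3 (9.60 CPM).

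Oxymetholone was compared with placebo within pairs of KSL libraries that shared a flow cytometer setting, using the same placebo libraries as the genotype contrast. In Fancd2-/- KSL cells edgeR, DESeq2 and limma called 0 repair genes, and edgeR called 0% of 13259 genes. At an unadjusted p under 0.05 there were 4 of 45, beside 6.81% of all genes (559 of 13259 with a higher value). They were Rev3l, Brca2, Atm and Rad50, each with a higher value on oxymetholone. The median log2 change was 0.05, and -0.01 over all genes. In pairs 1, 2 and 3 the repair genes' median was -0.01, 0.01 and 0.18, beside -0.02, -0.05 and 0.07 over all genes. Pair 3 holds the placebo library that stood apart. In 3 of 3 pairs, 7 genes were higher on oxymetholone, beside 8.72% of all genes, and 3 lower, beside 12%. Of 27 mitosis genes 5 had values above 0, with a median of -0.21 and 9 at an unadjusted p under 0.05, and of 35 DNA replication genes 6, with a median of -0.13. The 17 neutrophil and monocyte markers had a median of -0.31, with 5 at an unadjusted p under 0.05. Each list had 0 called, and their part in the repair genes' values was not tested.

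Rev3l was at 17.8, 16.0 and 9.60 CPM in the placebo libraries of pairs 1, 2 and 3 and at 20.4, 22.7 and 19.9 CPM in the libraries paired with them. Its log2 ratios were 0.20, 0.51 and 1.05, and its fitted change was 0.58 ± 0.15 (adjusted p = 0.688). Pair 3 thus held the largest ratio. Brca2 was at 43.8, 38.7 and 33.9 CPM and, on oxymetholone, 51.6, 51.8 and 48.7 CPM (0.38 ± 0.12, adjusted p = 0.688), and Atm at 52.0, 45.0 and 36.9 CPM and at 56.7, 56.0 and 56.8 CPM (0.34 ± 0.12, adjusted p = 0.688). For all 3 genes the diets did not overlap and placebo replicate 3 was lowest. Their transcripts are 10713, 10724 and 10006 bases long. With the length trend removed, the 3 changes were 0.35, 0.15 and 0.12 and the median of the set was -0.01. In that fit 1 repair gene had an unadjusted p under 0.05, beside 742 of 13259 genes tested. Without pair 3 the changes were 0.39, 0.36 and 0.25, and 2 repair genes had an unadjusted p under 0.05, beside 427 of 13219.

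Below 0, Xrcc6 was at 158, 173 and 184 CPM in placebo libraries, and in oxymetholone ones at 149.7, 151 and 147 CPM in Fancd2-/- cells (-0.21 ± 0.11, adjusted p = 0.688), lower in each pair. Mre11a went from 32.2, 33.8 and 37.1 CPM to 30.0, 32.8 and 28.2 CPM (-0.19 ± 0.12, adjusted p = 0.69), and Rad51ap1 from 56.0, 54.2 and 56.7 CPM to 51.9, 54.5 and 47.2 CPM (-0.13 ± 0.12, adjusted p = 0.74). Both overlapped between diets. Without pair 3, which holds the placebo library that stood apart, the values were -0.11 for Xrcc6, -0.04 for Mre11a and -0.02 for Rad51ap1.

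In wild-type KSL cells edgeR, DESeq2 and limma likewise called 0 repair genes between diets, and edgeR called 0% of 13259 genes. At an unadjusted p under 0.05 there were 4 of 45, beside 2.69% of all genes (125 of 13259 with a higher value). They were Brca1, Prkdc, Brip1 and Mre11a, each with a higher value on oxymetholone. These 4 became 0 without pair 1, 2 without pair 2 and 0 without pair 3. Over all genes the count was then 169 of 13275, 236 of 13316 and 224 of 13413. The median log2 change was 0.11 (0.16 without pair 2), with 37 of 45 values above 0 beside 48.8% of all genes. In pairs 1, 2 and 3 the median was 0.15, 0.04 and 0.11. In 3 of 3 pairs, 17 genes were higher on oxymetholone, beside 11.2% of all genes, and 2, Mus81 and Poln, lower, beside 18.4%.

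Brca1 was at 26.4, 33.0 and 28.9 CPM in the placebo libraries of wild-type pairs 1, 2 and 3 and at 35.5, 34.4 and 37.2 CPM in the libraries paired with them (0.30 ± 0.12, adjusted p = 0.999). Prkdc was at 24.4, 25.4 and 25.9 CPM and 29.9, 29.9 and 32.0 CPM (0.29 ± 0.13), and Brip1 at 16.1, 21.5 and 22.2 CPM and 23.6, 25.0 and 25.4 CPM (0.34 ± 0.15). The diets did not overlap for these 3 genes. Below 0, Poln was at 1.58, 1.32 and 1.66 CPM and 1.11, 1.26 and 1.11 CPM (-0.34 ± 0.33), Xrcc3 at 30.7, 34.4 and 29.4 CPM and 21.6, 36.3 and 30.9 CPM (-0.10 ± 0.14) and Polh at 11.7, 11.2 and 12.7 CPM and 10.2, 11.5 and 11.8 CPM (-0.07 ± 0.14). Xrcc3 turned to 0.09 without pair 1. Every adjusted p in this paragraph was 0.999. All 27 mitosis genes had values above 0, with a median of 0.35 and 0 called, and 32 of 35 DNA replication genes, with a median of 0.13. Neutrophil and monocyte markers summed to 971 to 1210 CPM on placebo and 1270 to 1510 CPM on oxymetholone, without overlap. Within that list 7 of 17 log2 changes lay above 0, with a median of -0.17. Mpo alone was at 670 to 877 CPM on placebo and 961 to 1200 CPM on oxymetholone. Erythroid markers (46.4 to 72.8 and 39.4 to 45.5 CPM) and mast cell and basophil markers (6.84 to 7.96 and 7.99 to 16.1 CPM) did not overlap either. Their part in the repair genes' values was not tested.

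**Figure D5:**
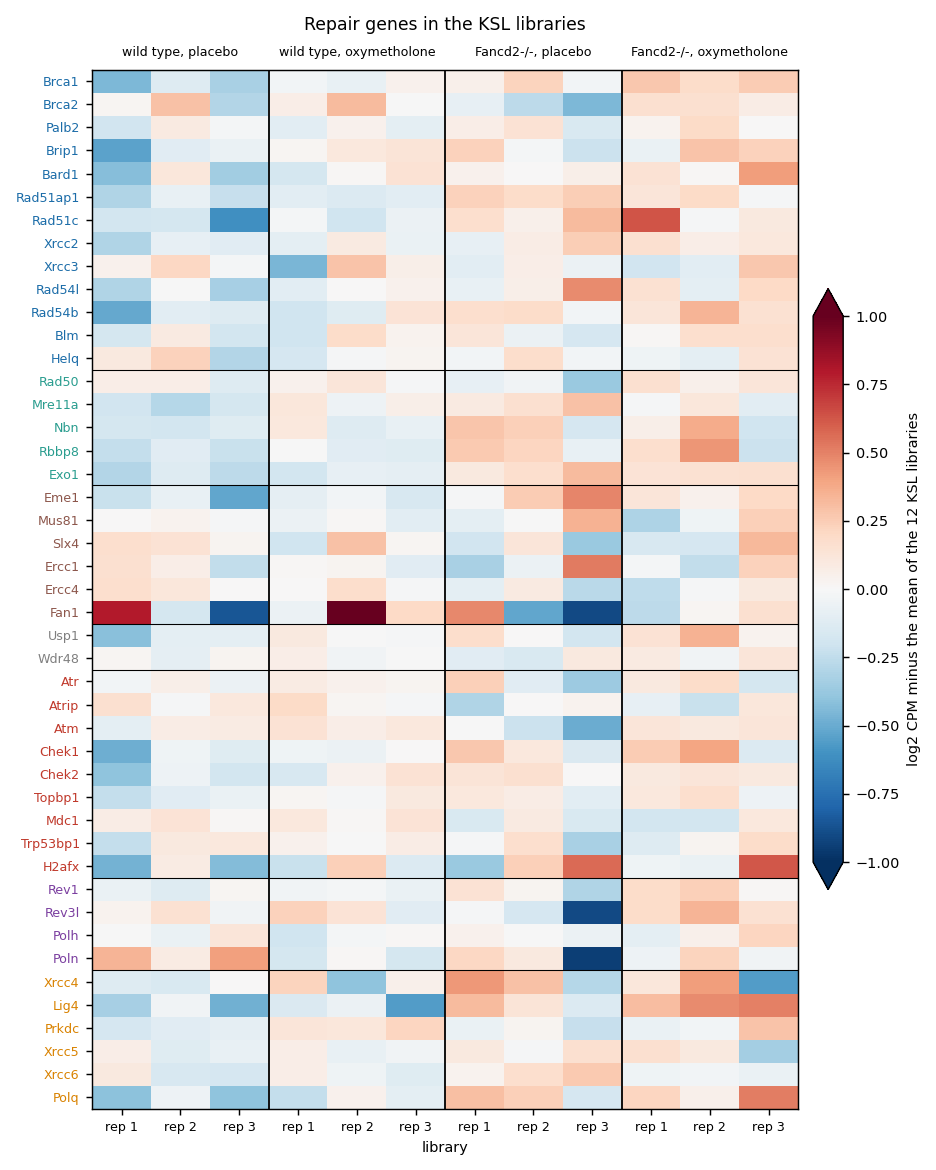
Log2 CPM of each repair gene (rows, by role) minus its mean over the 12 KSL libraries (columns, by genotype and diet), from blue (lower) to red (higher), on a scale that ends at -1 and 1. Brca1 is blue in wild-type placebo replicate 1 (26.4 CPM) and red in Fancd2-/- oxymetholone replicate 1 (43.6 CPM), and Rev3l is darkest blue in Fancd2-/- placebo replicate 3 (9.60 CPM).

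The oxymetholone effect in Fancd2-/- minus that in wild-type KSL cells was tested as an interaction. Here edgeR, DESeq2 and limma called 0 repair genes, edgeR called 0% of 13259 genes, and 2 of 45 had an unadjusted p under 0.05, beside 3.45% of all genes. The count was 5 without Fancd2-/- pair 1 (980 of 13448 over all genes) and 0 without wild-type pair 2 (289 of 13316). It was 1 without any of the other 4 pairs (236 to 1223 over all genes). With all pairs the 2 genes were Mre11a (-0.47 ± 0.18) and Rev3l (0.53 ± 0.22). Mre11a was at 26.6, 24.8 and 26.8 CPM in wild-type placebo libraries and 32.8, 29.2 and 31.5 CPM in wild-type oxymetholone libraries. Its 3 wild-type placebo values lay below all Fancd2-/- ones, while its wild-type oxymetholone values overlapped them. Eme1 (-0.33 ± 0.18) and Xrcc6 (-0.28 ± 0.16) followed below 0, and Brca2 (0.25 ± 0.16) and Atm (0.24 ± 0.17) above it. Eme1 was at 38.3, 40.0 and 36.6 CPM in wild-type and 44.5, 42.0 and 46.8 CPM in Fancd2-/- oxymetholone libraries, and Xrcc6 at 161, 149 and 141 CPM in wild-type ones. The adjusted p of each of these 6 was 0.953, and the median over the 45 genes was -0.08. That median was -0.15 with the length trend removed and -0.13 without wild-type pair 2. With the length trend removed Brca2 stood at 0.04, Atm at 0.04 and Rev3l at 0.32. Without Fancd2-/- pair 3, Rev3l stood at 0.32, Atm at 0.13, Eme1 at -0.21 and Xrcc6 at -0.18. Of 27 mitosis genes 0 had values above 0, with a median of -0.50 and 18 at an unadjusted p under 0.05, and of 35 DNA replication genes 2, with a median of -0.26. Both lists had 0 called, and their part in the repair genes' values was not tested.

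In wild-type erythroblasts the repair genes spanned the narrowest range of any comparison. Here edgeR, DESeq2 and limma called 0 repair genes and 0 of 45 had an unadjusted p under 0.05, where edgeR called 0% of 9694 genes and 1.27% had an unadjusted p under 0.05. Without placebo replicate 3 the count at that p was 3, beside 470 of 9857 genes tested. Without placebo replicate 2 or oxymetholone replicate 2 it was 1, beside 116 of 9851 and 101 of 9874. Log2 changes lay between -0.19 and 0.17, with a median of 0.00. Polh was at 244, 240.5 and 231 CPM on oxymetholone, above its placebo values without overlap (0.12 ± 0.06), as were 3.79% of all genes. Slx4 was at 188, 189.7 and 189 CPM in placebo libraries, and in oxymetholone ones at 159.8, 185 and 178 CPM (-0.13 ± 0.07), lower without overlap, as were 2.31% of all genes. Every other repair gene overlapped between diets. H2afx was at 3001, 2827 and 2738 CPM on oxymetholone (0.08 ± 0.07), and Chek2 at 140.2, 161 and 183 CPM in placebo libraries, and in oxymetholone ones at 167, 179 and 176 CPM (0.09 ± 0.08). Atm was at 19.3, 24.8 and 26.1 CPM on oxymetholone (-0.19 ± 0.12), and Rad54l at 196, 213 and 189.5 CPM in placebo libraries, and in oxymetholone ones at 194, 195 and 189.9 CPM (-0.07 ± 0.06). Each of these 6 had an adjusted p of 1.

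The oxymetholone effect in erythroblasts minus that in wild-type KSL cells was called for 0 repair genes by edgeR, DESeq2 and limma, where edgeR called 0.0155% of 12863 genes. This contrast used group means and did not block on the KSL pairs. Brip1 alone, 1 of 45, had an unadjusted p under 0.05 (-0.35 ± 0.17), beside 2.45% of all genes. The count was 7 without wild-type placebo KSL replicate 2, beside 422 of 12981 genes tested. It was 2 without oxymetholone erythroblast replicate 3, beside 318 of 13046, and 0 or 1 without any other library. Brip1 was at 88.6, 82.6 and 94.5 CPM in placebo libraries, and in oxymetholone ones at 80.7, 89.7 and 93.4 CPM in erythroblasts. Rad54l (-0.25 ± 0.14) and Atm (-0.29 ± 0.16) followed below 0. Polh (0.18 ± 0.13), Poln (0.26 ± 0.35) and Helq (0.08 ± 0.18) had the smallest p above it, and the value of Helq turned to -0.06 without wild-type placebo KSL replicate 2. Poln was at 3.24, 2.67 and 2.72 and 2.44, 2.81 and 3.01 CPM in erythroblasts on placebo and oxymetholone, and Helq at 89.9, 104 and 87.1 and 94.5, 94.0 and 92.6 CPM, each overlapping. Rad54l was at 31.7, 39.0 and 31.0 CPM in placebo libraries, and in oxymetholone ones at 36.3, 39.1 and 40.2 CPM in KSL cells, and Helq at 13.7, 15.04 and 10.4 and 11.4, 12.7 and 13.0 CPM. The adjusted p of each was 1, and the median over the 45 genes was -0.10.

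In whole marrow on placebo, ratios of CPM in Fancd2-/- over wild type ran from 0.886 for Palb2 to 1.24 for Fan1, with a median of 0.998. Past 1.5-fold were 0 of 45 genes, beside 1.41% of the 11819 genes with at least 100 counts in a library. For comparison, Fancd2 had a ratio of 0.272 (0.251 to 0.295), with an exact binomial 95% interval in parentheses. Fan1, with 41 and 31 counts, was the 1 repair gene under 100 counts, and its interval ran from 0.761 to 2.05. Intervals lay below 1 for 14 genes and above 1 for Rad54b, Rev1 and Polq. The share of all genes with such intervals was not computed, so these counts cannot be read as particular to repair genes. Those farthest below were Palb2 at 0.886 (0.822 to 0.954), Mus81 at 0.889 (0.833 to 0.948) and Xrcc3 at 0.897 (0.849 to 0.947). H2afx, the most deeply covered, stood at 0.918 (0.909 to 0.927), and Polq at 1.07 (1.02 to 1.13). Exo1 at 0.993 (0.948 to 1.04), Rad51ap1 at 0.990 (0.959 to 1.02) and Brca1 at 1.0 (0.969 to 1.04), which lay above wild type in Fancd2-/- KSL libraries, had intervals that include 1. The intervals cover counting error alone, and with 1 library of each genotype the spread between mice is not in them.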

How the data were processed

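The submitters' notes name Bowtie, mm9 and edgeR. Software versions, the counting program, the use of strand and the treatment of multiply mapped reads: not given in the sources used here. The authors deposited raw counts for 20 libraries in 26005 rows of transcripts. They also deposited a normalised matrix, treated here as a score, whose libraries sum to nearly equal totals. One Fancd2-/- placebo KSL column differs in name from every sample label and was taken, from the series' design text, as that group's remaining sample, replicate 1.

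The row with the largest total was kept for each of 20377 symbols. Counts were tested with edgeR 4.0.16 in R 4.3.3 (robust quasi-likelihood, TMM, filterByExpr with a minimum count of 10) and adjusted over all genes tested. The 12 KSL libraries shared 1 fit. Oxymetholone in KSL cells had the pair as a block, since the labels say that pairs shared a cytometer setting. The contrast of the oxymetholone effect between erythroblasts and KSL cells had no block. Deviations of paired libraries from their group means correlated at -0.04 to 0.40. Alternatives were median-of-ratios size factors, DESeq2 1.42.0, limma 3.58.1 on log2 of the score plus a pseudocount of 1, unfiltered counts, summed rows, no block, the 6 libraries compared alone, a lowess length trend (span 0.3) removed, and each library or pair left out. The scripts were tested on simulated counts. Transcript lengths came from the GENCODE annotation of mm9, and starts in the deposited table were read as 0-based.

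The 45 genes, the lists and the tests were chosen with earlier results of these data known. Every member was named. Library values were given for up to 8 called members in each direction with the smallest p or, where under 3 were called, for the 3 with the smallest p each way. Of the other lists up to 4 called genes were named. Library values of H2afx, Fan1 and Xrcc6 between populations, and of Mre11a and Brca1 between genotypes on placebo, were added after they were seen.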

Additional observations from a re-analysis of the deposited data

How the results depend on the processing

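Between erythroblasts and KSL cells the median log2 change of the repair genes was 2.15 with median-of-ratios size factors, 2.15 with DESeq2 and 0.63 with the deposited normalised matrix, and 1.89 to 2.06 with 1 library left out. With that matrix 11 genes turned below 0: Xrcc2 (-0.15), Xrcc3 (-0.64), Rad50 (-1.01), Nbn (-0.24), Exo1 (-0.015), Eme1 (-0.048), Mus81 (-1.1), Wdr48 (-0.36), Chek1 (-0.23), Poln (-0.38) and Lig4 (-0.83). That matrix scales libraries to total counts, and the median of all genes moved from -0.67 to -2.02. Xrcc6 stood at 0.074 with median-of-ratios size factors and 0.074 with DESeq2, and at -0.15 to 0.012 with 1 library left out. Between genotypes on placebo, DESeq2 called 5 repair genes, the fit with the length trend removed called 4, and leaving out 1 library gave 0 to 1. With the length trend removed Atm stood at 0.042 and Brca2 at 0.027. The cause of these changes was not tested.

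In wild-type KSL cells the median change on oxymetholone was 0.087 to 0.161 with 1 pair left out, and Xrcc3 stood at -0.19 to 0.089. The oxymetholone effect on Helq in erythroblasts minus KSL cells was -0.055 to 0.2 with 1 library left out. Without the replicate block, edgeR called 0 repair genes for oxymetholone in Fancd2-/- cells (median 0.06), in wild-type cells (median 0.10) and for the interaction (median -0.09). It called 0 of all genes with and without the block, so that count says nothing about stability. At an unadjusted p under 0.05 the count over all genes went, in that order, from 903 to 581, 357 to 228 and 457 to 270. With 3 libraries in a group, the median standard error of a repair gene's log2 change within KSL cells was 0.13 to 0.18. Genes at few counts, such as Fan1 and Poln, were least precise.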
